A study of Solanum lycopersicum with 4 samples.

Results

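Leaf genes that were read in WT tomato and almost not at all in *ddm1* were collected by their counts alone. A gene was taken as switched off when it had 3 or fewer counts in both *ddm1* libraries and 15 or more counts in both WT libraries, on chromosomes 1 to 12 and outside an interval of chromosome 4 from 4309437 to 4368608. The rule found 82 genes among the 35479 annotated genes of the 12 chromosomes, and among the 18140 of these that reached 15 counts in both WT libraries (below, the WT-expressed genes). The genes were chosen by the counts of both genotypes, so their fall in *ddm1* is given as a description and was not tested.

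The *ddm1* plants carry mutations in both tomato DDM1 genes (*Slddm1a*/*Slddm1b*) in the background of the cultivar M82, and the WT plants are M82 without these mutations. Poly(A) RNA of the fourth leaf of plants 1 month old was sequenced in 2 libraries per genotype. Replicates are numbered as in the sample titles. The *ddm1* columns of the count table carry other numbers, 2 for *ddm1* replicate 1 and 3 for *ddm1* replicate 2. The study describes the 2 libraries as independent biological replicates, and nothing in the labels says how many plants went into each. Only 1 double mutant line is named, so an effect of the mutations and an effect of that line cannot be told apart. In leaf tissue, fewer cells that express a gene and less RNA per cell cannot be told apart either.

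DDM1 is a chromatin remodeler of the SNF2 family. It opens nucleosomal DNA to the enzymes that maintain DNA methylation and histone H3 lysine 9 methylation, and it is best known from *Arabidopsis*, where its loss releases transposable elements from silencing. Loss of a gene's transcript in a *ddm1* mutant is therefore the opposite of the response the remodeler is known for. The table does not pair its nuclear gene identifiers with names or functions, and the table of names used here matched 0 of the 82. Genes are given below by chromosome and position in the M82 assembly, with identifiers only for the pair with the highest WT level.

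The 4 libraries held between 5462981 and 6887057 counts, and the *ddm1* libraries were the larger ones (6610591 and 6887057 counts, against 5827940 and 5462981 in WT). A lower sequencing depth in *ddm1* thus does not accompany the low counts. Leaf identity could be checked only on plastid genes. All 7 photosynthesis genes examined were read in every library, with rbcL, the large subunit of Rubisco, at 989 and 834 counts in WT and at 456 and 554 in *ddm1*. In all 7 both *ddm1* counts lay below both WT counts, as for psaA of photosystem I (374 and 236 against 38 and 36), and whether this has a part in the results below was not tested.

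Together the 82 genes held 4512 and 4701 counts in the WT libraries, or 0.0774% and 0.0861% of the library totals. In *ddm1* they held 92 and 109 counts, or 0.00139% and 0.00158%. They make up 0.452% of the WT-expressed genes. Over all WT-expressed genes, with the chromosome 4 interval included, 0.496% met the count rule. The mirror rule, with 3 or fewer counts in both WT libraries and 15 or more in both *ddm1* libraries, found 947 genes, or 4.82% of the 19631 genes that reached 15 counts in both *ddm1* libraries. Complete absence of counts was the less frequent state among the 82. Only 17 genes were at 0 in both *ddm1* libraries, 25 were at 0 in exactly 1 of them, and 40 had at least 1 count in each. "Switched off" thus stands for a level at or under 3 counts, a mean of 0.437 CPM (counts scaled by the effective library size) over the *ddm1* libraries, and not for a measured zero.

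**Figure D1:**
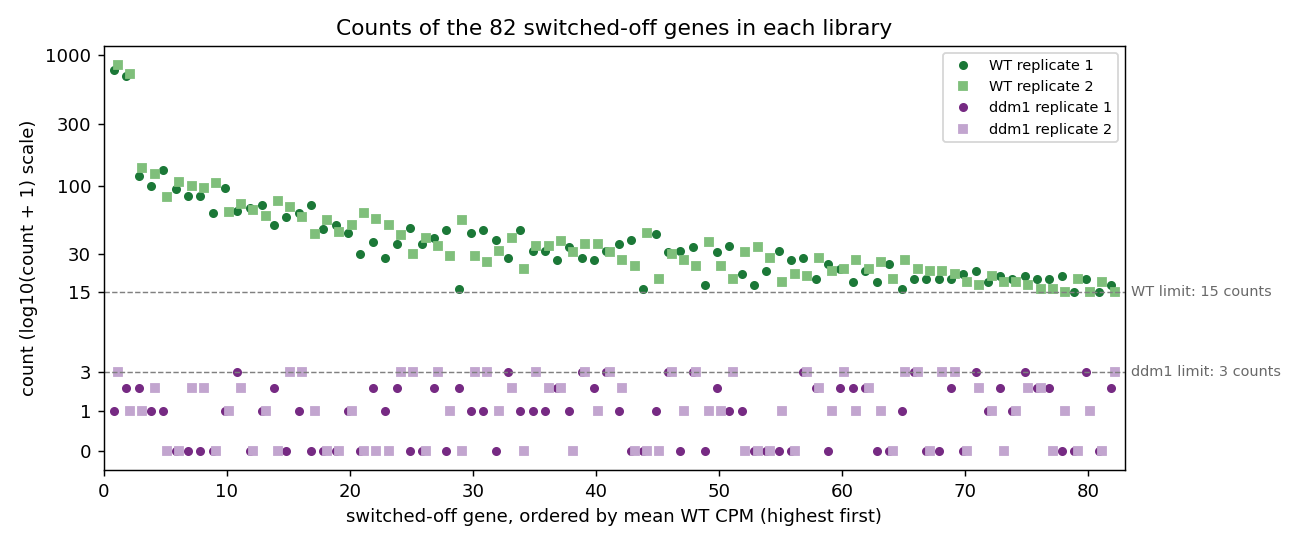
Counts of the 82 switched-off genes (x axis, ordered by mean WT CPM) in each of the 4 libraries (y axis, on a log10(count + 1) scale), 1 point per gene and library, with the limits of 3 and 15 counts as dashed lines. The first 2 genes stand at 690 to 837 counts in WT, most others lie below 60, and the empty band between the dashed lines is made by the rule.

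A pair of genes stood far above the rest in WT. Solyc10g005400.3, on the minus strand of chromosome 10 at 310389–311940, had 773 and 837 counts in the WT libraries and 1 and 3 in *ddm1*. Its WT level was 146 ± 16.3 CPM (SD, n = 2), and the ratio of WT to *ddm1* was 500.02 (exact 95% counting interval 195 to 1837). Solyc07g041920.4, on the minus strand of chromosome 7 at 54666539–54669309, had 690 and 720 counts in WT and 2 and 1 in *ddm1*. Its WT level was 128 ± 10.9 CPM (SD, n = 2), and the ratio was 584 (interval 199 to 2835). In both genes every WT count exceeded every *ddm1* count by more than 200-fold, and the pair held 32.8% of the WT counts of all 82 genes. The intervals of the ratios in this text cover counting error only, since they rest on summed counts and leave out the spread between libraries.

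The next 8 genes by WT level had between 63 and 138 counts in each WT library. The gene on chromosome 7 at 56654643–56655546 had 121 and 138 counts in WT and 2 and 1 in *ddm1*. On chromosome 9 at 56519457–56521860 the counts were 101 and 125 against 1 and 2, and on chromosome 6 at 51431636–51433426 they were 133 and 83 against 1 and 0. None of these genes passed 2 counts in a *ddm1* library. The gene on chromosome 1 at 90204746–90205164 had 95 and 108 counts in WT and 0 in both *ddm1* libraries, so its WT level was at least 42.2-fold higher when 3 counts are set as the limit for each *ddm1* library.

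Of the other genes among these 8, those on chromosome 10 at 41108160 and at 172948 had 84 and 101, and 85 and 97, counts in WT, and both had 0 and 2 in *ddm1*. The gene on chromosome 3 at 55183970–55184308 had 63 and 106 counts in WT and 0 and 0 in *ddm1*, a fall of at least 35.4-fold. The gene on chromosome 1 at 73380038 had 97 and 64 counts against 1 and 1. The 10 genes with the highest WT level thus included 2 that were silent in both *ddm1* libraries, and both of these were under 450 bp long.

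The remaining 72 genes were low in WT as well. Over all 82 the median count was 31.5 and 30 in the WT libraries, with a range from 15 to 773 and from 15 to 837, and the mean WT level had a median of 5.69 CPM (quartiles 4.09 and 8.53, range 2.89 to 146). A mean WT count under 30 was found for 36 genes, under 60 for 66 and under 100 for 76. Because the *ddm1* limit is a fixed count, a gene with a low WT level needs a smaller relative fall to meet the rule. Of the WT-expressed genes with a mean WT count from 15 to under 30, 3.57% were switched off (36 of 1009). The share was 1.76% from 30 to under 60 (30 of 1700), 0.485% from 60 to under 120 (13 of 2678), 0.0238% from 120 to under 240 (1 of 4195) and 0.0234% at 240 or more (2 of 8558).

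A relative limit gave a less steep fall across the bands. Genes whose mean *ddm1* CPM was under 10% of the mean WT CPM numbered 252 among the WT-expressed genes, the chromosome 4 genes included, and 77 of the 82 switched-off genes were among them. By the same 5 bands of WT level these genes numbered 41 of 1009, 59 of 1700, 56 of 2678, 50 of 4195 and 46 of 8558. Their share of the band thus still fell with every step up in WT level. Above a mean WT count of 120, nearly all genes of this kind kept more than 3 counts in a *ddm1* library, 49 of 50 and 44 of 46. The fixed limit therefore leaves out most well-expressed genes that fell by as large a factor.

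**Figure D2:**
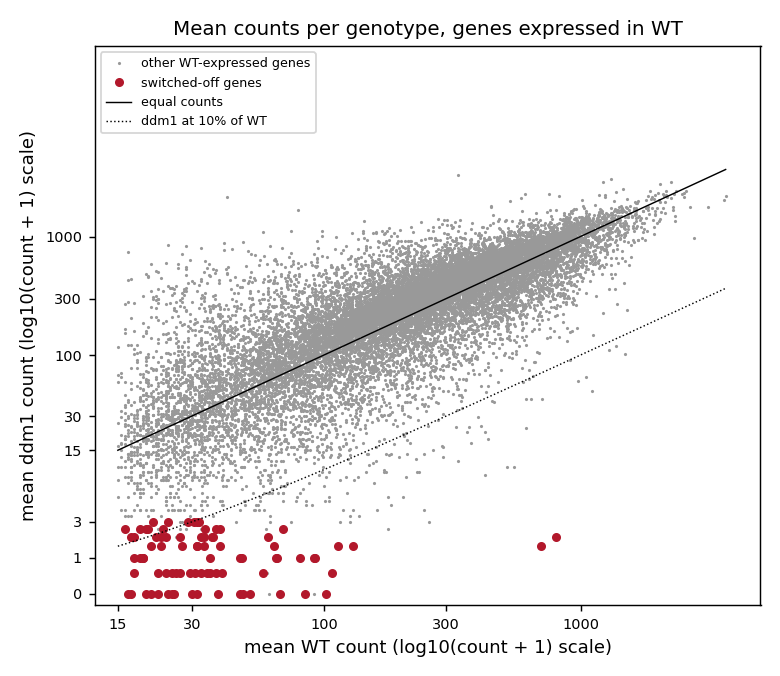
Mean count in the WT libraries (x axis) against mean count in the *ddm1* libraries (y axis) for the 18140 WT-expressed genes, both on a log10(count + 1) scale, with the 82 switched-off genes in red, equal counts as a solid line and *ddm1* at 10% of WT as a dotted line. The red points fill the lower left corner, with 2 far to the right, grey points in that corner include the 8 genes of the left-out interval, and other grey points below the dotted line keep more than 3 counts in a *ddm1* library.

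Among the 17 genes at 0 in both *ddm1* libraries, WT was higher by at least 6.86-fold to at least 42.2-fold, with a median bound of 12.7. After the genes on chromosomes 1 and 3 given above, the largest WT level in this group was that of a gene on chromosome 4 at 64937975–64939618, with 68 and 66 counts. The smallest was that of a gene on chromosome 2 at 42955944–42960816, with 15 and 18. For the other 65 genes the ratio of WT to *ddm1* ran from 7.95 to 584, with a median of 26.1. The smallest ratio, 7.95 (interval 3.08 to 26.1), was that of a gene on chromosome 2 at 41180984–41182168. It had 17 and 15 counts in WT and 2 and 3 in *ddm1*. A further 6 genes had 3 counts in both *ddm1* libraries, with ratios from 8.70 to 13.3. The one on chromosome 7 at 62781491–62782844 had 19 and 23 counts in WT, a ratio of 8.70 (interval 3.68 to 25.03).

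The limits cut through a continuous run of values. Inside the *ddm1* limit, 26 genes had a highest *ddm1* count of exactly 3, and just outside it 26 further genes had a highest *ddm1* count of 4 and met every other part of the rule. The gene outside with the highest WT level, on chromosome 10 at 2771529–2772906, had 84 and 168 counts in WT and 3 and 4 in *ddm1*. At the WT limit, 5 genes had a lowest WT count of 15, such as one on chromosome 2 at 50463879–50466149 (15 and 19 counts against 0 and 0). Another 10 genes had a lowest WT count of 14 and stayed outside, such as one on chromosome 8 at 61772763–61773599 (14 and 21 counts against 0 and 0).

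The WT libraries gave like values for most of the genes. Of the 82, 59 differed by less than 1.5-fold in CPM between the WT libraries and 6 by more than 2-fold. The median fold between the libraries was 1.26, beside 1.12 for all WT-expressed genes and 1.25 for the 2740 WT-expressed genes with a mean WT count of at most 60 (the low-level genes). The largest disagreement, 3.72-fold, was that of the gene on chromosome 3 at 37735275–37743393, with 16 and 55 counts in WT and 2 and 0 in *ddm1*. It was followed by genes on chromosome 7 at 61216609–61217665, with 16 and 44 counts against 0 and 0, and on chromosome 4 at 4274229–4277481, with 17 and 37 against 0 and 1. In these 3 genes WT replicate 2 was the higher library, and the *ddm1* counts of all 3 stayed at 2 or under.

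How far the choice holds in a library that took no part in it was read by choosing genes with 3 libraries and looking at the fourth, a reading added after the data were seen. Without *ddm1* replicate 1 the rule chose 102 genes, and in that library 82 of them (80.4%) had 3 or fewer counts and the other 20 had 4 to 13. Without *ddm1* replicate 2 it chose 168 genes, and in that library only 82 (48.8%) had 3 or fewer counts, while the other 86 had 4 to 60 counts with a median of 8. The 2 *ddm1* libraries thus differed in how many genes they held at the floor. The genes that meet the limit are the same 82 in every such reading, by construction. Each library removed some genes, and *ddm1* replicate 2 removed the most: 86, beside 20 for *ddm1* replicate 1, 28 for WT replicate 1 and 31 for WT replicate 2.

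In the left-out library *ddm1* replicate 2, 102 of the 168 genes were under 10% of their WT mean, and the median was 6.99% of WT. In 7 of the 168 the level was 50% of WT or more. In *ddm1* replicate 1, 84 of its 102 genes were under 10%, the median was 3.12%, and no gene reached 50%. On the WT side, 82 of 110 genes chosen without WT replicate 1 (74.5%) and 82 of 113 chosen without WT replicate 2 (72.6%) reached 15 counts in the library left out, with medians of 22 and 23 counts.

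**Figure D3:**
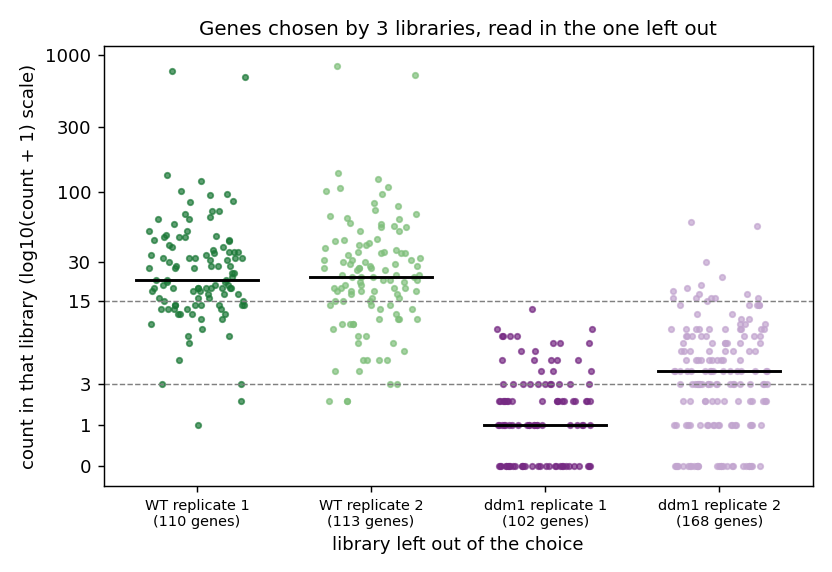
Count (y axis, on a log10(count + 1) scale) in the library named on the x axis, for the genes that the 3 other libraries chose, with the median as a bar and the limits of 3 and 15 counts as dashed lines. Of the genes chosen without *ddm1* replicate 2, 86 of 168 lie above 3 counts in it, against 20 of 102 for *ddm1* replicate 1.

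The switched-off genes were shorter at the median than the WT-expressed genes and close to the low-level genes. The Length of the table, which for nearly all genes is the whole span from start to end with introns, had a median of 1679.5 bp over the 82 genes (quartiles 878.5 and 2880, range 119 to 8119). The median was 3888.5 bp over all WT-expressed genes, 1926.5 bp over the low-level genes and 1998 bp over the 947 switched-on genes. Only 3 of the 82 genes (3.66%) were 5 kb or longer, beside 36.6% of the WT-expressed genes and 12.1% of the low-level genes, and none reached 20 kb. At the short end, 16 genes (19.5%) were 600 bp or shorter, beside 5.14% of the WT-expressed and 16.2% of the low-level genes.

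Length and WT level moved together in this table. In the lowest band of WT level, from 15 to under 30 counts, the median Length was 1742 bp for the switched-off genes and 1729 bp for the others. From 30 to under 60 counts it was 1813 and 2070 bp, and from 60 to under 120 counts 1636 and 2732 bp. In the lowest band, which holds 36 of the 82 genes, the medians were thus nearly the same, and in the 46 genes of the higher bands the switched-off genes had the shorter median. Per kb of Length, the switched-off genes had a median WT level of 3.19 CPM, beside 10.3 for the WT-expressed and 3.27 for the low-level genes.

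The longest of the 82, 8119 bp on chromosome 3 at 37735275–37743393, was also the gene with the least agreement between the WT libraries. The next was 5941 bp long, on chromosome 10 at 54870511–54876451, with 27 and 21 counts in WT and 0 in both *ddm1* libraries. The third was the 5663-bp gene on chromosome 10 at 172948–178610, already given among the 10 highest. The shortest gene, 119 bp on chromosome 7 at 67766383–67766501, had 19 and 28 counts in WT and 2 and 2 in *ddm1*. It lies inside a gene of the opposite strand, at 67764273–67769495, that had 288 and 210 counts in WT and 785 and 878 in *ddm1*. Reads were counted by strand, so reads of the host's strand were not assigned to it. The other short genes were 180 bp on chromosome 7 at 58869529–58869708, with 19 and 22 counts against 0 and 3, and 204 bp on chromosome 6 at 46923571–46923774, with 32 and 35 against 1 and 2.

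The interval of chromosome 4 that was left out holds 13 annotated genes, of which 8 meet the count rule, and each of these 8 is exactly 309 bp long. Among the 82 there is 1 gene of that Length, on chromosome 4 at 52650806, with 22 and 23 counts in WT and 2 and 2 in *ddm1*. It is 1 of 17 WT-expressed genes of 309 bp, and these 17 include the 8 of the left-out interval. The switched-off gene at 4274229–4277481 lies before the left-out interval, within 100 kb of its genes, with other annotated genes between. Near-identical copies can share reads, and multi-mapping reads were allowed in the counting, so the split of counts among such copies is uncertain.

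To look for local copies, the annotated genes within the nearest 2 on either side were searched for one whose Length differed by at most 5%. Such a gene stood beside 12 of the 82 switched-off genes (14.6%), 13.7% of the WT-expressed genes and 13.98% of the low-level genes. These like-length neighbours numbered 16, of which edgeR tested 8 and called 2 lower and 2 higher. For the 339-bp gene on chromosome 3 at 55183970, both genes of like Length on its strand fell as well (log2 fold change -3.77 and -1.86, edgeR adjusted p = 0.00371 and 0.00136). The one at 55197516 had 38 and 94 counts in WT and 4 and 8 in *ddm1*, and the one at 55203497 had 182 and 249 against 74 and 74. In the other direction, the one on chromosome 2 at 38972386 rose from 7 and 7 counts to 30 and 34 (log2 fold change 1.86, edgeR adjusted p = 0.00898), and the one on chromosome 12 at 66707691 rose from 0 and 1 to 20 and 13 (edgeR adjusted p = 0.00666). Beside the gene on chromosome 4 at 64937975, 3 genes of like Length had at most 1 count in any library. Like Length was the only criterion, since no sequence was compared.

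Both strands were used. Of the 82 genes, 37 (45.1%, exact 95% interval 34.1 to 56.5) lie on the plus strand and 45 on the minus strand. Among the WT-expressed genes 50.2% lie on the plus strand, and the difference was not tested.

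Tomato gene identifiers give the chromosome, a running number and, after a point, the version of the gene model. The first annotation numbered genes in even steps, and genes inserted later took the numbers between. Among the switched-off genes 71 (86.6%) have a number ending in 0, 7 (8.54%) a number ending in another digit, 2 (2.44%) a number of 150000 or more and 2 (2.44%) a pan-genome identifier. The share with a number ending in 0 was 95.9% for the WT-expressed genes, 88.9% for the low-level genes and 63.0% for the switched-on genes. The gene with the highest WT level outside the class ending in 0 was the one on chromosome 7 at 56654643. The pair with pan-genome identifiers are the 119-bp gene of chromosome 7 and a gene of chromosome 5 at 22512385–22514188, with 34 and 24 counts in WT and 3 and 3 in *ddm1*.

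Gene models at version 1 made up 26 of the 82 (31.7%, exact 95% interval 21.9 to 42.9). They made up 12.9% of the WT-expressed genes, 30.4% of the low-level genes and 51.0% of the switched-on genes. No switched-off gene has a copy suffix, and the 80 with a Solyc identifier each sit on the chromosome that it names. Pan-genome identifiers name none. Over all annotated genes of the 12 chromosomes the version 1 share was 32.3%. None of these differences was tested, because genes are not replicates.

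Switched-off genes were found on all 12 chromosomes. Chromosome 10 held most, 13, and it held most per WT-expressed gene as well, 10.9 per 1000. Chromosome 7 followed with 10 genes, or 7.33 per 1000. The other chromosomes had from 3 genes, on chromosome 12 (2.51 per 1000), to 8 genes, on chromosomes 1 (3.45 per 1000) and 6 (5.07 per 1000). The switched-on genes numbered 78 among the 2703 annotated genes of chromosome 10 and 75 among the 2659 of chromosome 7. On chromosome 1 they numbered 106 among 4332. These are raw numbers, so they do not rank the chromosomes as the values per 1000 do.

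**Figure D4:**
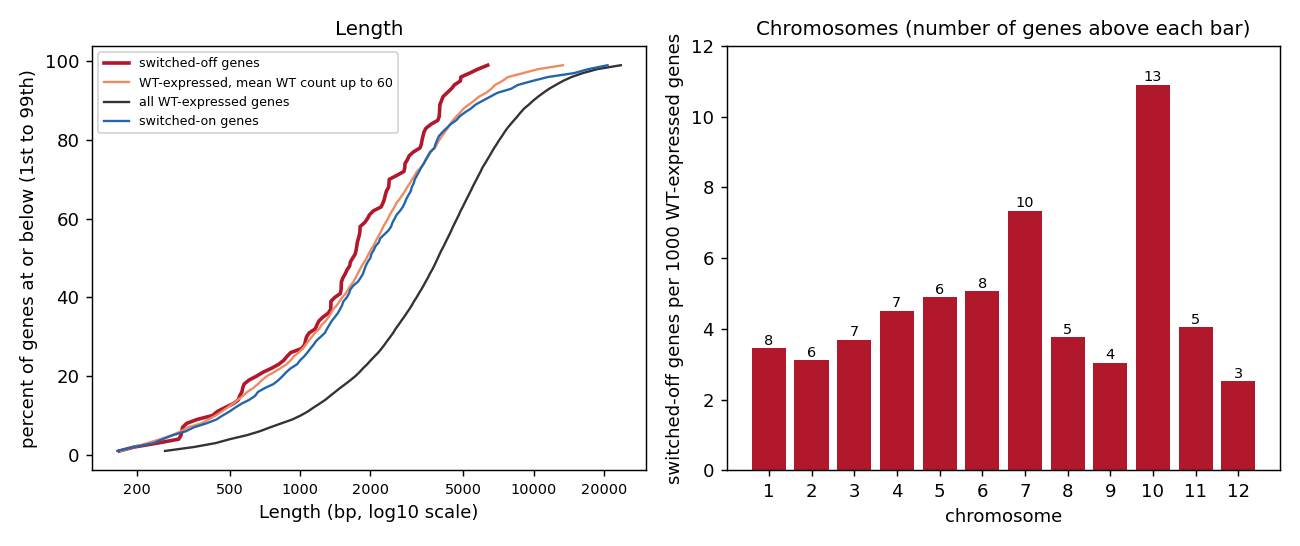
Left, cumulative percent of genes (y axis) by Length (x axis, log10 scale, bp) for the switched-off genes, the low-level genes, all WT-expressed genes and the switched-on genes. Right, switched-off genes per 1000 WT-expressed genes (y axis) on each chromosome (x axis), with the number of genes above the bar. The Length curve of the switched-off genes runs close to that of the low-level genes, and chromosome 10 has the tallest bar.

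Along the chromosomes the genes lay, at the median, about as far from the ends as annotated genes in general. They lay farther in than the WT-expressed and the low-level genes. The midpoint of 40 genes was within the outer 10% of the chromosome, measured from the nearer end, and that of 18 between 10% and 20%, while 24 lay farther in. Other genes were not counted in this way. The median distance was 10.4% of the chromosome, close to the 9.99% of all annotated genes of the 12 chromosomes. It was 7.48% for the WT-expressed genes, 8.30% for the low-level genes and 15.2% for the switched-on genes. Gene-poor places were defined as those of the lowest 25% of genes, with 46 or fewer annotated genes within 500 kb. They held 17 of the 82 genes (20.7%, exact 95% interval 12.6 to 31.1), beside 12.96% of the WT-expressed genes, 14.7% of the low-level genes and 44.6% of the switched-on genes. The interval takes the genes as independent draws, and genes are not replicates, so these differences were not tested.

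The 17 genes in gene-poor places include a few of the 10 with the highest WT level, and most of those 10 lie elsewhere. Solyc07g041920.4 has 33 annotated genes within 500 kb, the gene on chromosome 9 at 56519457 has 36, and the one on chromosome 10 at 41108160 has 27. The longest gene, on chromosome 3 at 37735275, is the most isolated, with 3 annotated genes within 500 kb. Chromosome 5 held 4 of the 17, at 12216309, 22512385, 28780802 and 44955752, and these are 4 of the 6 switched-off genes of that chromosome. Chromosomes 3 and 11 held 3 each. The share of all genes of chromosome 5 in gene-poor places was not counted, so no concentration there is read from this. Solyc10g005400.3, in contrast, has 110 annotated genes within 500 kb and lies at 0.469% of the chromosome from its end.

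The median distance to the nearest other switched-off gene was 1.78 Mb, and 9 of the 82 (10.98%) had another within 100 kb, beside 42.0% of the 947 switched-on genes, which are more numerous. This count depended on the choice of libraries and limits. It was 15 of 110 genes without WT replicate 1, 17 of 113 without WT replicate 2 and 24 of 168 without *ddm1* replicate 2. It was 18 of 90 with the chromosome 4 interval kept in. The 9 genes form 4 clusters. The largest, on chromosome 10 from 2865854 to 2912321, holds 3 genes with 4 other genes between them. Their counts were 28 and 20 in WT against 3 and 3, 39 and 24 against 0 and 0, and 22 and 28 against 0 and 0. The gene just outside the *ddm1* limit at 2771529 lies before this cluster by position.

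The cluster on chromosome 11, from 37613988 to 37619597, is a pair on the plus strand with no annotated gene between. Its first gene had 20 and 18 counts in WT and 2 and 0 in *ddm1*, and its second had 47 and 55 against 0 and 0. The cluster on chromosome 4 spans 64899492 to 64939618 with 4 other genes between, and its genes had 31 and 30 counts against 3 and 3, and 68 and 66 against 0 and 0. The cluster on chromosome 7, from 58867248 to 58869708, is an adjacent pair on the minus strand whose midpoints are 1.36 kb apart. Its genes had 28 and 36 counts against 3 and 3, and 19 and 22 against 0 and 3. Every gene of the 4 clusters had a mean WT count under 70.

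Stretches at the *ddm1* limit seldom held a second gene that was read in WT. Over all WT-expressed genes 0.496% met the count rule, and such stretches around other genes were not counted. The fixed limit also ends a stretch at a neighbour just above it, as on chromosome 5 at 28781369 (5 and 3 counts in *ddm1*). For each switched-off gene the unbroken run of annotated genes at 3 or fewer counts in both *ddm1* libraries was counted, and 40 of the 82 genes formed a run of their own. The 82 genes lie in 79 distinct runs, since 3 runs hold an adjacent pair of them. In 73 runs the switched-off gene was the only one with more than 3 counts in any WT library, and in the other 6 there were 2 such genes. The longest run, 33 genes on chromosome 12 from 46469239 to 47012292, held 1 gene with WT counts over 3, the switched-off gene with 46 and 26 counts in WT and 1 and 3 in *ddm1*. The other genes of this run were thus at 3 or fewer counts in WT too. The run of 18 genes on chromosome 3 from 40679974 also held 1 gene with WT counts over 3. Those of 15 genes on chromosome 4 from 52385148 and of 11 genes on chromosome 7 from 58837719 held 2 each.

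The change of the genes next to the switched-off genes was read from an edgeR fit over all 21289 genes tested, in which 23.7% were called lower and 25.3% higher in *ddm1* at a Benjamini-Hochberg adjusted p under 0.05. All 82 switched-off genes were called lower in this fit, from which nothing is read since the same counts chose them. The nearest annotated genes on either side numbered 164. Of these, 6 are switched-off genes themselves, the adjacent pairs of chromosomes 7, 10 and 11, and they were left out, so that the 158 others were kept partly by their own counts. Of the 158, 100 had enough counts to be tested. Among the tested neighbours 29 (29%) were called lower, 28 (28%) higher, and 43 were not called, with a median log2 fold change of 0.01. With the 6 switched-off genes counted in, 35 of 106 (33.0%) were lower and 28 (26.4%) higher. Neither share was tested against that of all genes.

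With the nearest 2 genes on either side, 52 of 197 tested neighbours (26.4%) were lower and 50 (25.4%) higher. On the same strand as the switched-off gene, 16 of 47 nearest neighbours (34.0%) were lower and 14 (29.8%) higher. On the opposite strand 13 of 53 (24.5%) were lower and 14 (26.4%) higher. The difference between strands was not tested.

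**Figure D5:**
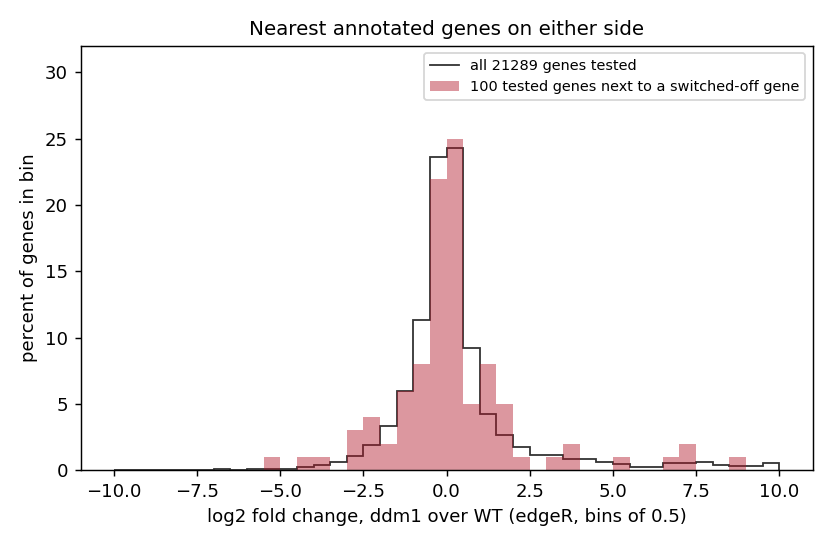
Percent of genes (y axis) in bins of 0.5 of the log2 fold change, *ddm1* over WT (x axis), for all 21289 genes tested by edgeR (line) and the 100 tested genes next to a switched-off gene (filled), adjacent switched-off genes left out. Both peak at 0, and the neighbours have 29 genes called lower and 28 called higher. Values beyond 10 are drawn in the outer bins.

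A few neighbours had nearly gone silent with the switched-off gene. On chromosome 5, the gene at 28781369–28783199 lies 25 bp upstream of the switched-off gene at 28780802–28781343 on the same strand. It had 105 and 133 counts in WT and 5 and 3 in *ddm1*, a log2 fold change of -5.17 (SE 0.42, edgeR adjusted p = 0.000331), while the switched-off gene had 51 and 78 against 2 and 0. On chromosome 2, the gene at 38961436–38963926 lies 123 bp downstream of the switched-off gene at 38958507 on the same strand. It had 45 and 45 counts against 4 and 2, a log2 fold change of -4.16 (SE 0.48, edgeR adjusted p = 0.000910). Whether such close pairs on 1 strand are separate transcripts cannot be told from the counts.

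The next largest falls among the neighbours were the gene of like Length on chromosome 3 at 55197516, given above (log2 fold change -3.77, edgeR adjusted p = 0.00371), and a gene on chromosome 7 at 56647054–56648280. The latter had 261 and 247 counts in WT and 41 and 46 in *ddm1* (log2 fold change -2.86, edgeR adjusted p = 0.000182). It lies 6362 bp from the switched-off gene at 56654643, the third by WT level. All 4 of these neighbours are on the strand of the switched-off gene.

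Other neighbours rose steeply. The gene on chromosome 10 at 65998792–66000333 had 28 and 22 counts in WT and 324 and 322 in *ddm1* (log2 fold change 3.38, SE 0.20, edgeR adjusted p = 0.000153). It lies 868 bp from the switched-off gene at 66001202, which had 23 and 23 counts in WT and 2 and 3 in *ddm1*, on the opposite strand. On chromosome 8, the gene at 63235462–63241688 rose from 9 and 21 counts to 203 and 322, next to the switched-off gene at 63227407, with 65 and 73 against 3 and 2. On chromosome 7, the gene at 62774341–62779001 rose from 7 and 1 to 204 and 164, next to the switched-off gene at 62781491.

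Genes that were silent in WT and read in *ddm1* also stood next to switched-off genes. On chromosome 11, the gene at 29733074–29735184 had 0 counts in both WT libraries and 59 and 82 in *ddm1*. On chromosome 5, the gene at 12253350–12253698 had 0 in both WT libraries and 23 in each *ddm1* library. On chromosome 6, the gene at 44643875–44645370 went from 0 and 0 to 30 and 13. In these places opposite changes stood within 35 kb of each other.

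Some of the nearest neighbours were silent in every library, and the share of such genes over all annotated genes was not counted. Of the 158 nearest neighbours, 82 had 15 or more counts in every library, 48 had 3 or fewer in every library, 9 had 3 or fewer in WT only, and 1 in *ddm1* only, or 7 with the 6 adjacent switched-off genes counted in. A switched-off gene had 2 neighbours with 15 or more counts in every library in 25 cases (30.5%), 1 in 32 cases and none in 25 cases (30.5%). For the WT-expressed genes 2 such neighbours were found in 40.3% and none in 15.6%, for the low-level genes in 36.0% and 19.9%, and for the switched-on genes in 13.1% and 51.1%. Around Solyc07g041920.4 the nearest gene downstream, at 54624647, had 861 and 865 counts in WT and 1243 and 1218 in *ddm1* and was not called (log2 fold change 0.20, edgeR adjusted p = 0.163). Around Solyc10g005400.3 the nearest genes had at most 38 counts in any library and were not tested.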

How the data were processed

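Single-end reads of directional poly(A) libraries were trimmed by the authors (Trimmomatic 0.38) and aligned to the M82 V1.0 assembly (HISAT2). Alignments without PCR duplicates were counted per annotated gene (featureCounts), and these unnormalized counts were deposited. Per the file headers, counting was reverse-stranded, allowed multi-mapping reads and counted a read for every gene it overlapped, and Length (bp) is the counted span. Reads in introns are included, and duplicate removal lowers mainly high counts.

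The count rule was applied to the deposited counts. CPM values used the effective library sizes of TMM. For genes at 0 in both *ddm1* libraries a bound was set with 3 counts per library, and other ratios have exact conditional counting intervals. Neighbours were read from edgeR 4.0.16 (R 4.3.3; filterByExpr with a minimum count of 10, glmQLFit, glmQLFTest, genotype as the only term, Benjamini-Hochberg over 21289 genes), checked on simulated data. DESeq2 1.42.0, RLE factors, other filters and thresholds, other count limits, a replicate block and each library left out were the alternatives. Distances between switched-off genes are between midpoints.

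The genes, lists and rules were chosen with earlier results of these data known. Genes given with counts are the 10 with the highest WT CPM, the 3 longest and 3 shortest, all clustered genes, the 3 with the largest ratio between WT libraries and those at the limits. Others, neighbours included, were named after their values were seen. The table of names (assembly SLM_r2.1) matched 214 organelle genes and 0 nuclear genes, so the DDM1 genes are not reported here, and no sequence is shown. Batches are not given, and 0 columns of other samples were left out. With 2 libraries per genotype, p-values measure the spread between these libraries only.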

Additional observations from a re-analysis of the deposited data

How the results depend on the processing

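Of 115 alternatives run over all results, 87 stayed close to the reported value and 28 moved. For the median Length and the shares, close meant within the 95% interval of the reported value. For counts of genes it meant within a fixed fold limit and not within a measured spread. That limit let 113 switched-off genes pass for 82, and 3828 genes called lower by DESeq2 for 5038 by edgeR. The number of switched-off genes, 82, followed the limits: it was 17 with 0 counts required in both *ddm1* libraries, 131 with 5 or fewer allowed, 130 with a WT minimum of 10, 32 with a WT minimum of 30, and 102 to 168 with each library left out, the most without *ddm1* replicate 2. With a mean *ddm1* CPM under 10% of WT in place of the fixed limit, an alternative chosen after seeing the data, it was 242, with a median Length of 2240.5 bp and 52 genes with another within 100 kb.

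At a limit of 0 counts the median Length was 1314 bp and 58.8% lay on the plus strand. The median Length ranged from 1575 to 1755 bp with each library left out. With the lowest 10% of genes as gene-poor, 6.10% of the genes were there. Genes with another within 100 kb numbered 2 at a limit of 0, 18 at a limit of 5, 19 with a WT minimum of 10, 2 with a WT minimum of 30, 18 with the chromosome 4 interval kept in, 20 within 500 kb and 13 to 24 with each library left out. With counts scaled to the smallest library total, no result on the switched-off genes moved.

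Where the log2 fold change had also to exceed 1 in size, 17 of 100 tested neighbours were called lower, beside 13.1% of all genes tested. With the nearest 2 genes on either side 52 of 197 were called lower and 50 higher. With any 1 library left out fewer neighbours were called lower, fewest without WT replicate 2, and the same held over all genes. Genes called lower and higher over the whole table numbered 2788 and 3508 with the fold minimum, 3194 and 3566 at an adjusted p under 0.01, and from 3430 to 4493 and from 3780 to 4889 with each library left out. DESeq2 called 22 of 110 tested neighbours lower (20%) and 26 higher (23.6%), beside 15.7% and 18.4% of all genes it tested. With the replicate number as a block, edgeR called 4828 genes lower (22.7%) and 5283 higher (24.8%), and 26 and 28 of the 100 tested neighbours. The numbers pair nothing in the labels, and same-numbered libraries did not deviate together (correlation 0.00357 across 21289 genes, which are not independent). Depth limits what the set means. For the 17 genes at 0 counts in both *ddm1* libraries, a true zero and a level up to the bound of 3 counts per library (0.437 CPM) cannot be told apart.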
